A study of Mus musculus with 12 samples.

Results

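Type I and type II interferons act on nearly every cell type by switching on a shared programme of interferon-stimulated genes. The programme holds sensors of viral nucleic acid, proteins that block viral replication, GTPases that attack intracellular pathogens, and the machinery that cuts, transports and displays peptides on MHC class I molecules. Type I interferon acts on genes that carry the interferon-stimulated response element (ISRE), with STAT2 and IRF9 among the factors involved, and interferon gamma acts on genes that carry the gamma-activated site (GAS). Endothelial cells carry receptors for both and present peptides on class I molecules to circulating T cells.

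The 42 genes described here were chosen by symbol, as genes known to answer to interferon or to serve antigen presentation on class I molecules. 41 of them have values among the 23422 genes of the data, and Mx2, a dynamin-like antiviral GTPase, was not analysed here. Of the 41, 39 reached a mean of 1 FPKM (fragments scaled to transcript length and to the number mapped in the library) over the 12 libraries and were tested. The other 2 stayed low in every library: Oas2, a synthetase of the messenger 2-5A, at 0.00 to 0.15 FPKM, and Mx1, another dynamin-like antiviral GTPase, at 0.02 to 0.72 FPKM. By role, the 39 tested genes were 4 transcription factors, 7 nucleic acid sensors, 12 antiviral effectors, 5 genes of ISG15, ubiquitin and ADP-ribose transfer, 5 interferon-inducible GTPases and 6 genes of antigen presentation.

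RNA was measured in primary lung endothelial cells, grown in medium with 20% fetal bovine serum, from mice lacking MLK2 and MLK3 (double knockout) and from wild type C57BL/6J mice. MLK2 and MLK3 are mixed lineage kinases that act upstream of the kinase JNK. The 4 groups of 3 libraries were double knockout cells in hypoxia (1% oxygen for 90 min), double knockout cells in normoxia (21% oxygen), wild type cells in hypoxia and wild type cells in normoxia. Whether the 3 libraries of a group stand for different mice or culture dishes is not stated, so the p-values reflect the scatter among these libraries, which may be technical. The labels mention no added interferon.

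The estimated depth was 21000000 to 25750000 fragments per library. Map3k10, which encodes MLK2, was at 1.02 to 1.34 FPKM in double knockout hypoxia and 0.131 to 0.169 FPKM in double knockout normoxia, against 16.6 to 19.1 FPKM in wild type hypoxia and 18.3 to 19.2 FPKM in wild type normoxia. Map3k11, which encodes MLK3, was at 10.9 to 12.2 FPKM over the 6 double knockout libraries, against 31.9 to 36.4 FPKM over the 6 wild type libraries. The summed level of 12 endothelial markers lay between 4276 and 4524 FPKM in all 12 libraries. The summed level of 22 leukocyte markers was 87.7 to 97.4 FPKM in double knockout hypoxia and 92.1 to 104.6 FPKM in double knockout normoxia, against 53.9 to 55.8 FPKM in wild type hypoxia and 42.0 to 52.2 FPKM in wild type normoxia. The leukocyte gene with the highest level was Lyz2, a lysozyme of myeloid cells, at a mean of 59.6 and 62.1 FPKM in double knockout hypoxia and normoxia, against 24.5 and 21.4 FPKM in wild type hypoxia and normoxia. The pan-leukocyte marker Ptprc averaged 0.623 and 0.595 FPKM in double knockout hypoxia and normoxia, against 0.187 and 0.135 FPKM in wild type hypoxia and normoxia, and 11 of the 23 leukocyte rows had a mean under 0.1 FPKM.

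With no added interferon mentioned in the labels, most of the genes were expressed at a low to moderate level. On the FPKM scale, the mean over all libraries ran from 1.20 for Zbp1, a sensor of Z-form nucleic acid, to 1301 for Bst2, which tethers budding virions at the cell surface, with a median of 9.99 over the 39 genes. Antigen presentation had the highest median, 209.1 FPKM, and B2m, the invariant light chain of class I molecules, averaged 1009 FPKM. This role was split, as its genes Psmb9, Tap1 and Psmb8 averaged 4.21, 18.4 and 28.2 FPKM. The class I heavy chains H2-K1 and H2-D1 lay between 356.9 and 420.7 FPKM and between 359.1 and 464.7 FPKM. Among the sensors, Ddx58, which encodes RIG-I, was highest with a mean of 37.3 FPKM. The median was 10.4 FPKM for the antiviral effectors, 9.10 for the transcription factors, 8.97 for the ISG15, ubiquitin and PARP genes, 6.40 for the sensors and 6.05 for the GTPases. The interferons themselves were nearly unread: of 14 ligand genes, 7 were listed at 0 in every library, none reached the level for testing, and Ifnz was at 0.313 to 0.685 FPKM, while the highest value of any other was 0.266 FPKM.

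Promoter sequence was read for the members, because the response elements are where interferon signals reach such genes. RefSeq windows of 300 bases on GRCm38.p6 (250 before to 50 after the annotated start) were matched for 32 of the 42 genes. They were searched on both strands for an ISRE-type motif spelled GAAA, any 2 bases, GAAA and for a GAS-type motif spelled TTCNNNGAA. The ISRE-type motif was in a window of 15 of the 32 genes (46.9%), against 3.99% of all 27025 genes with a window. The GAS-type motif was in 10 of the 32 (31.2%), against 9.55% of all genes. The ISRE-type motif was found in 4 of 5 sensors, 4 of 4 GTPases, 5 of 11 antiviral effectors, 1 of 4 transcription factors (Stat2), 0 of 2 ISG15, ubiquitin and PARP genes, and 1 of 6 antigen presentation genes (B2m). A match describes letters in a window and is not a bound site, and a window without a match says only that these letters are not in it.

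The first 4 sequences are those of the genes with the smallest p in the comparison of genotypes below, and each covers the 250 bases before a gene's start, 5′ to 3′ on the gene's own strand, with ISRE-type matches in capitals. Oas1a lies on chr5:120907526-120907775 (minus strand), Bst2 on chr8:71537473-71537722 (minus), H2-K1 on chr17:34000348-34000597 (minus) and H2-D1 on chr17:35262844-35263093 (plus).
Oas1a: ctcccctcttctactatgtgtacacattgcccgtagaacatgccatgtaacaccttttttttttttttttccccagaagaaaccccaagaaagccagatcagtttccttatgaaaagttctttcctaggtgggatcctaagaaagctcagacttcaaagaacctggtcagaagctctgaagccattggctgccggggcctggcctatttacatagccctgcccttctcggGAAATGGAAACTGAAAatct
Bst2: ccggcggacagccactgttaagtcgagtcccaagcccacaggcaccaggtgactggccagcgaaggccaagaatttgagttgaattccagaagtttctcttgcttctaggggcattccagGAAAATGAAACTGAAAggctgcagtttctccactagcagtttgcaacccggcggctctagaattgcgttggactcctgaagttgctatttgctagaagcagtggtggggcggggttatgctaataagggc
H2-K1: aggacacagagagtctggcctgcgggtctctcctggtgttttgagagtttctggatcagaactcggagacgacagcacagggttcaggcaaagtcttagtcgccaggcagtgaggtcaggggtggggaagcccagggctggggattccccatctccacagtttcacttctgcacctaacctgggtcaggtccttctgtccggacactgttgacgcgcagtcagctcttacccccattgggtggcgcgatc
H2-D1: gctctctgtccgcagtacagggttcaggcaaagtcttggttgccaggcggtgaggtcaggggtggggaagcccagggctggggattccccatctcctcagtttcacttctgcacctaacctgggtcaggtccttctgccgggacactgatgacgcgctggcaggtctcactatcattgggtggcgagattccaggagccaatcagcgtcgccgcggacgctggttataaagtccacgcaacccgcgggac

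Oas1a and Bst2 each held a pair of overlapping ISRE-type matches, with first bases at -20 and -14 of the start in Oas1a and at -130 and -124 in Bst2. A GAS-type match at -136 overlapped the first match of Bst2, and Oas1a held a separate GAS-type match at -98. The windows of H2-K1 and H2-D1 held neither motif in this spelling. The next sequences are those of Ifit1 (chr19:34640639-34640888, plus) and Isg15 (chr4:156200819-156201068, minus), examples of the members that moved together across libraries, and of Tap1 (chr17:34187306-34187555, plus), which changed in hypoxia and whose 300-base window shares 275 bases with that of its neighbour Psmb9. Ifit1 and Isg15 were picked after their values were seen.
Ifit1: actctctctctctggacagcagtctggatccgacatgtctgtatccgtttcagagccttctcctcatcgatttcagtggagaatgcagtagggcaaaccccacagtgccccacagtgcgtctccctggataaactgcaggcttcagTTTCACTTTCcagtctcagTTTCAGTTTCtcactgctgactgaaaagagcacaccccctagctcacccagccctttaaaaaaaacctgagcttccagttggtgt
Isg15: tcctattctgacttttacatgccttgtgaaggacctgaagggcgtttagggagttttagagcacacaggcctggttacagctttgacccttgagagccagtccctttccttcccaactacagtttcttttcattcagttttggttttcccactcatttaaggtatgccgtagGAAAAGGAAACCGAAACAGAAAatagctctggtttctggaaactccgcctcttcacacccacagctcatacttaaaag
Tap1: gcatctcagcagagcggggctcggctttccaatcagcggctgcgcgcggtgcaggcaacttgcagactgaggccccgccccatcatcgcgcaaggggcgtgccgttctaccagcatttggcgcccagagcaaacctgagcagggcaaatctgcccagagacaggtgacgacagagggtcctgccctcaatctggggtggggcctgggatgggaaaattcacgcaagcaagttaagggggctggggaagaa

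Ifit1 held ISRE-type matches at -104 and -85, read on the opposite strand. Isg15 held 3 overlapping matches at -78, -72 and -66. Tap1 held none of either motif. The window of Irf1 (chr11:53769764-53770013, plus), picked after its values were seen, carried no ISRE-type match and 1 GAS-type match at -90, which is in capitals here.
Irf1: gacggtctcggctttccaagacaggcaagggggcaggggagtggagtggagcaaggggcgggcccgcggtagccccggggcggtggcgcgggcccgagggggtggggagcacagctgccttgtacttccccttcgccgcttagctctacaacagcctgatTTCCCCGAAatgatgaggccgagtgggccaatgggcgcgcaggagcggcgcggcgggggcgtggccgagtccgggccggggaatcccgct

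Few of these genes were called changed in double knockout cells after hypoxia for 90 min. Of the 39 tested, 2 rose (Eif2ak2 and Ifih1), 2 fell (Irf1 and Tap1) and 35 did not pass the threshold (limma, adjusted p under 0.05). That is 10.3% of the members, against 39.3% of all 11378 tested genes, which split into 19.6% higher and 19.6% lower. Within a group the members also varied more, with a median residual SD on the log2 scale of 0.23 against 0.08 over all tested genes. A change of a given size is thus harder to call in most members, here and in the comparisons below. The 6 antigen presentation genes were nearer to all tested genes, with a median residual SD of 0.09. Irf1 and Bst2 were also at 0.09. The median log2 fold change was 0.06 over the 39 members and 0.01 over all tested genes. The libraries of double knockout hypoxia and normoxia did not overlap for 6 of the 39 members (3 higher and 3 lower), against 50.3% of all tested genes. In the antiviral effectors, the GTPases and the ISG15, ubiquitin and PARP genes, none of 12, 5 and 5 passed, and 1 of these 22 (Gbp3) had an unadjusted p under 0.05.

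**Figure D1:**
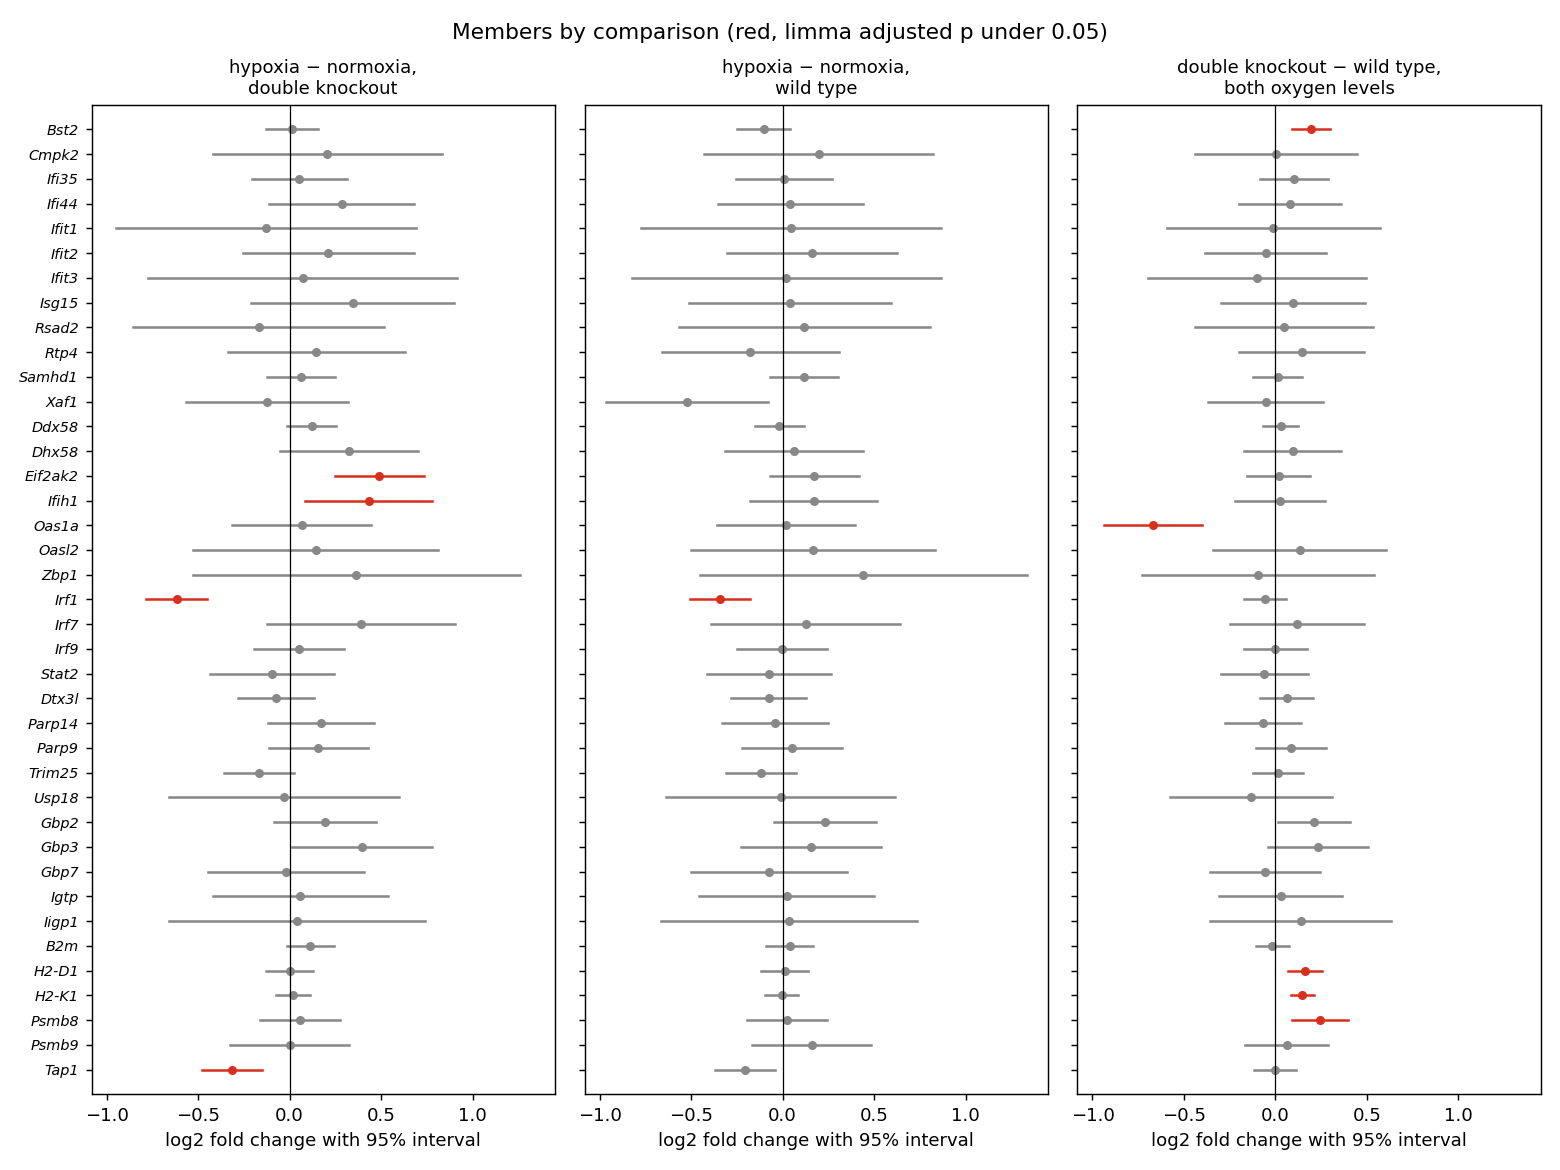
Log2 fold changes on the log2(FPKM + 1) scale with 95% intervals for the 39 tested genes, in hypoxia over normoxia of double knockout cells (left), hypoxia over normoxia of wild type cells (middle) and double knockout over wild type across both oxygen levels (right). Red marks limma adjusted p under 0.05: 4 genes on the left, Irf1 alone in the middle and 5 genes on the right; the intervals of Ifit1, Ifit3, Rsad2 and Zbp1 are among the widest.

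Irf1, a transcription factor that drives class I presentation genes and answers quickly to interferon gamma, fell in both genotypes. In double knockout cells it was at 5.30, 6.47 and 6.28 FPKM in hypoxia, against 10.3, 10.0 and 8.98 FPKM in normoxia. The 3 hypoxia libraries lay below the 3 normoxia libraries, and the log2 fold change was -0.62 (SE 0.08, limma adjusted p = 7.34e-05). Wild type cells had Irf1 at 6.99, 6.68 and 7.37 FPKM in hypoxia, against 8.66, 9.75 and 9.06 FPKM in normoxia. These libraries did not overlap either, and the log2 fold change was -0.34 (SE 0.08, limma adjusted p = 0.00856). The difference between the 2 responses, -0.28 (SE 0.11), did not pass (limma adjusted p = 0.236).

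Most of the Irf1 signal belonged to 1 of its 7 transcripts, ENSMUST00000108920, at 4.53 to 5.54 FPKM in double knockout hypoxia and 7.26 to 8.07 FPKM in double knockout normoxia, and at 5.78 to 6.53 FPKM in wild type hypoxia and 7.43 to 8.26 FPKM in wild type normoxia. The direction was thus the same in that single transcript in both genotypes. Irf1 kept its call in both genotypes under all 21 alternatives run.

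The other 3 transcription factors did not pass in either genotype. Irf7, which amplifies type I interferon production, was at 12.0, 8.24 and 17.3 FPKM in double knockout hypoxia, against 10.9, 7.79 and 8.37 FPKM in double knockout normoxia. Wild type libraries had 12.2, 10.6 and 7.55 FPKM in hypoxia, against 9.62, 10.7 and 7.07 FPKM in normoxia. The groups overlapped in both genotypes, with log2 fold changes of 0.39 (SE 0.24, limma adjusted p = 0.214) and 0.13 (SE 0.24, limma adjusted p = 0.745).

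Irf9, a DNA-binding partner of STAT2, was at 22.8, 19.7 and 25.1 FPKM in double knockout hypoxia, against 22.5, 19.6 and 22.8 FPKM in double knockout normoxia. Wild type cells had Irf9 at 24.05, 22.4 and 19.6 FPKM in hypoxia, against 24.95, 22.9 and 18.7 FPKM in normoxia. The ranges of the groups overlapped, wild type normoxia spanning the widest, and the 95% intervals of the log2 fold change were -0.19 to 0.30 in double knockout cells and -0.25 to 0.24 in wild type cells.

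Stat2, the STAT that answers to type I but not type II interferon, was at 4.47, 4.01 and 6.42 FPKM in double knockout hypoxia, against 6.03, 4.80 and 5.11 FPKM in double knockout normoxia. In wild type cells Stat2 was at 6.14, 5.16 and 4.36 FPKM in hypoxia, against 5.41, 6.55 and 4.69 FPKM in normoxia. The groups overlapped in both genotypes, with 95% intervals of -0.43 to 0.24 and -0.42 to 0.26.

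Among the 7 sensors, Eif2ak2 and Ifih1 rose in hypoxia of double knockout cells. The other 5 also had positive values that did not pass, with a median log2 fold change of 0.33 over the 7. Over all tested genes, 5892 of 11378 values were positive. All 7 sensors were lowest in library 2 of double knockout hypoxia, so their values are not independent. Eif2ak2 encodes PKR, a kinase that halts translation on binding double-stranded RNA. It was at 28.7, 24.6 and 33.8 FPKM in double knockout hypoxia, against 21.4, 19.0 and 20.4 FPKM in double knockout normoxia. The groups did not overlap, and the log2 fold change was 0.49 (SE 0.11, limma adjusted p = 0.00441). In wild type cells Eif2ak2 was at 26.7, 26.4 and 23.2 FPKM in hypoxia, against 24.2, 24.3 and 19.2 FPKM in normoxia. Here 1 hypoxia library lay below 2 normoxia libraries, and the log2 fold change of 0.17 (SE 0.11) did not pass (limma adjusted p = 0.303). The difference between the 2 responses of Eif2ak2, 0.32 (SE 0.16), did not pass either (limma adjusted p = 0.349).

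Ifih1 encodes MDA5, a sensor of long double-stranded RNA. It was at 6.96, 5.71 and 9.64 FPKM in double knockout hypoxia, against 5.66, 4.69 and 5.12 FPKM in double knockout normoxia. The lowest hypoxia library lay just above the highest normoxia library, and the log2 fold change was 0.43 (SE 0.16, limma adjusted p = 0.0496). This call ended in 13 of 21 alternatives, among them those without any 1 of the 3 double knockout normoxia libraries or without library 1 or 3 of double knockout hypoxia (highest limma adjusted p = 0.196). In wild type cells Ifih1 was at 7.86, 6.01 and 5.66 FPKM in hypoxia, against 6.30, 5.95 and 4.72 FPKM in normoxia, which overlapped (limma adjusted p = 0.489).

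Of the 6 antigen presentation genes, Tap1 fell in double knockout hypoxia and the other 5 did not pass. Tap1 is a subunit of the transporter that carries peptides into the endoplasmic reticulum. It was at 16.0, 14.6 and 18.5 FPKM in double knockout hypoxia, against 20.6, 19.2 and 21.8 FPKM in double knockout normoxia. The groups did not overlap, and the log2 fold change was -0.32 (SE 0.07, limma adjusted p = 0.00569). Wild type cells had Tap1 at 16.0, 18 and 16.97 FPKM in hypoxia, against 19.9, 19.9 and 19.4 FPKM in normoxia. All 3 wild type hypoxia libraries were the lower ones, but the log2 fold change of -0.21 (SE 0.07) did not pass (limma adjusted p = 0.0703), and the difference between the 2 responses was -0.11 (SE 0.11, limma adjusted p = 0.664). The neighbour that shares the Tap1 window, Psmb9, an immunoproteasome subunit, was at 4.79, 3.26 and 4.98 FPKM in double knockout hypoxia, against 4.81, 3.86 and 4.21 FPKM in double knockout normoxia, which overlapped.

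In wild type cells Irf1 was the only gene of the 39 to pass in hypoxia, which is 2.56% of the members against 20.8% of all tested genes. The median log2 fold change was 0.03 over the members and 0.00 over all genes, and libraries did not overlap for 3 members (Irf1, Tap1 and Bst2, all lower), against 38.3% of all genes. Values of members that did not pass ran from -0.52 for Xaf1, a partner of the inhibitor of apoptosis XIAP, to 0.44 for Zbp1. Both hypoxia comparisons used their own normoxia libraries. No member passed in the difference between the genotypes' responses (limma), where 1 member (Irf1) had an unadjusted p under 0.05 and 0.193% of all genes passed.

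Between the genotypes, Oas1a was lower and a few genes of presentation and tethering, most of them abundant, were higher in double knockout cells. Over both oxygen levels, 4 of the 39 were higher in double knockout cells (Bst2, H2-K1, H2-D1 and Psmb8), 1 was lower (Oas1a) and 34 did not pass. These are 12.8% of the members, against 19% of all tested genes, of which 8.89% were higher and 10.2% lower. The median log2 fold change was 0.03 over the members and -0.01 over all genes. By oxygen level, 3 members passed in hypoxia (Bst2 and H2-K1 higher, Oas1a lower), which is 7.69% against 16.1% of all genes, of which 7.68% were higher and 8.42% lower. In normoxia 1 passed (Oas1a, lower), which is 2.56% against 8.16% of all genes, of which 3.84% were higher and 4.32% lower. The libraries of the genotypes did not overlap for 5 of the 39 members in hypoxia (3 higher and 2 lower, against 17.4% and 18.4% of all genes, 35.8% in all) and for 3 in normoxia (25.7% of all genes).

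Oas1a makes 2-5A from double-stranded RNA and so activates the nuclease RNase L. It was at 6.09, 5.17 and 9.09 FPKM in double knockout hypoxia, against 11.4, 11.0 and 10.3 FPKM in wild type hypoxia. It was at 6.45, 5.74 and 6.66 FPKM in double knockout normoxia, against 13.2, 11.5 and 8.19 FPKM in wild type normoxia. No double knockout library reached a wild type library of the same oxygen level, while 1 double knockout hypoxia library lay above the lowest wild type normoxia library. The log2 fold change was -0.67 over both oxygen levels (SE 0.12, limma adjusted p = 0.00255), -0.65 in hypoxia (SE 0.17, limma adjusted p = 0.0258) and -0.69 in normoxia (SE 0.17, limma adjusted p = 0.0291). The call over both levels was kept under all 20 alternatives. Each call at 1 oxygen level ended in 6 of 21, including without double knockout hypoxia library 1 or 2 or any 1 wild type hypoxia library, and without any 1 double knockout normoxia library or wild type normoxia library 1 or 2 (highest limma adjusted p = 0.0924 in hypoxia and 0.103 in normoxia). Oas1a belongs to a family of near-identical copies, between which the authors' counting could split reads.

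Bst2 was at 1388, 1273 and 1526 FPKM in double knockout hypoxia, against 1149, 1190 and 1166 FPKM in wild type hypoxia. It was at 1309, 1394 and 1440 FPKM in double knockout normoxia, against 1357, 1208 and 1207 FPKM in wild type normoxia. The genotypes did not overlap in hypoxia and did in normoxia, where 1 wild type library was above the lowest double knockout library. The log2 fold change was 0.19 over both oxygen levels (SE 0.05, limma adjusted p = 0.0124) and 0.25 in hypoxia (SE 0.07, limma adjusted p = 0.0223). The call in hypoxia alone ended in 7 of 21 alternatives, including without double knockout hypoxia library 1 or 3 or any 1 wild type hypoxia library (highest limma adjusted p = 0.0848). The call over both levels was kept in all 20.

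H2-K1 was at 419.8, 397.7 and 420.7 FPKM in double knockout hypoxia, against 356.9, 385.2 and 366.0 FPKM in wild type hypoxia. It was at 395.5, 410.8 and 415.1 FPKM in double knockout normoxia, against 388.8, 356.9 and 366.8 FPKM in wild type normoxia. All 6 double knockout libraries lay above all 6 wild type libraries, with a log2 fold change of 0.15 over both oxygen levels (SE 0.03, limma adjusted p = 0.00466). In hypoxia alone it was 0.16 (SE 0.04, limma adjusted p = 0.0234), which ended in 5 of 21 alternatives, including without library 1 or 3 of double knockout hypoxia or of wild type hypoxia (highest limma adjusted p = 0.0844).

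H2-D1, the other classical heavy chain, was at 458.3, 433.7 and 441.5 FPKM in double knockout hypoxia, against 401.5, 413.0 and 382.7 FPKM in wild type hypoxia. It was at 418.6, 451.0 and 464.7 FPKM in double knockout normoxia, against 421.1, 359.1 and 408.7 FPKM in wild type normoxia. Only the lowest double knockout library and the highest wild type library, both in normoxia, crossed. The log2 fold change was 0.16 over both levels (SE 0.04, limma adjusted p = 0.0179). H2-K1, H2-D1 and the H2-Q genes share long stretches of sequence, so reads could be split between them.

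Psmb8, an immunoproteasome subunit, was at 31.6, 27.3 and 34.9 FPKM in double knockout hypoxia, against 27.7, 21.6 and 28.9 FPKM in wild type hypoxia. In normoxia it was at 29.6, 30.5 and 29.8 FPKM in double knockout cells, against 25.8, 25.97 and 24.4 FPKM in wild type cells. The genotypes overlapped in hypoxia and not in normoxia. Its log2 fold change over both levels was 0.24 (SE 0.07, limma adjusted p = 0.0318), and the call ended in 8 of 20 alternatives, including without double knockout hypoxia library 1 or 3, without library 2 or 3 of double knockout normoxia and without any 1 wild type normoxia library (highest limma adjusted p = 0.0721). Of its 2 transcripts, ENSMUST00000173441 was at 17.9 to 19.9 FPKM in double knockout hypoxia and 19.2 to 21.4 in double knockout normoxia, against 12.3 to 19.2 FPKM in wild type hypoxia and 14.5 to 16.5 in wild type normoxia. The other, ENSMUST00000025196, was at 9.42 to 14.99 FPKM in double knockout hypoxia and 8.62 to 10.4 in double knockout normoxia, against 9.32 to 10.7 FPKM in wild type hypoxia and 9.52 to 11.3 in wild type normoxia. It overlapped between genotypes at both oxygen levels. The light chain B2m did not pass, with a 95% interval of -0.11 to 0.07 for the log2 fold change over both levels. The leukocyte marker sums given above were also higher in double knockout cells. Their part in these differences was not tested, and in bulk RNA more cells of a type and more RNA per cell cannot be told apart.

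**Figure D2:**
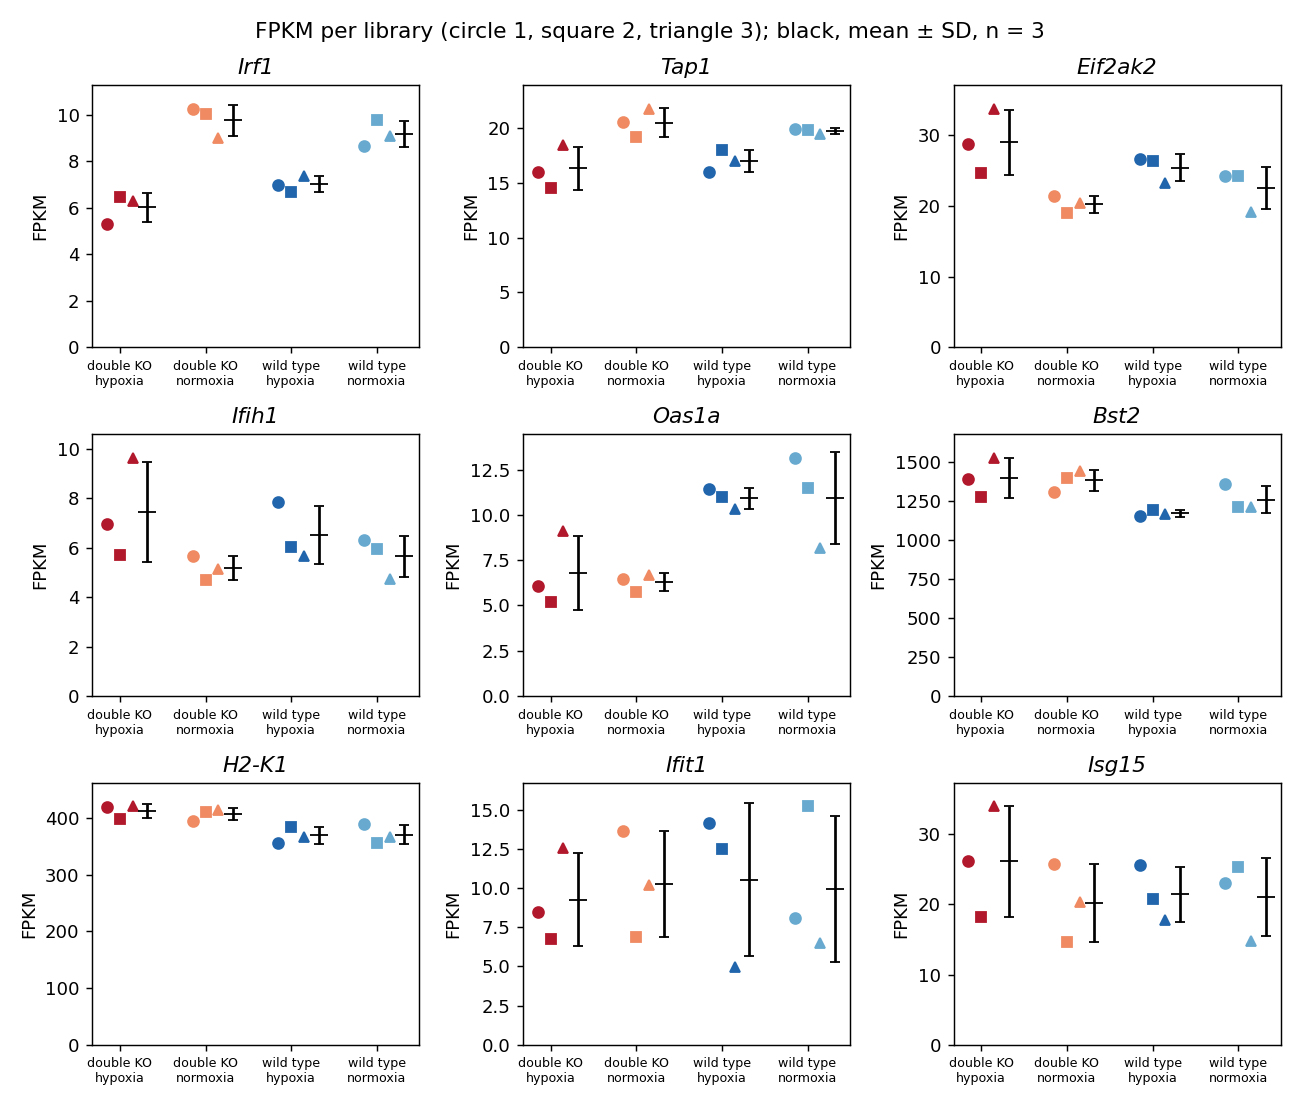
FPKM of 9 genes in each library of the 4 groups, with library 1 as a circle, 2 as a square and 3 as a triangle, and the group mean ± SD (n = 3) in black; axes start at 0. Irf1 is lower in hypoxia in both genotypes and Oas1a lower in double knockout cells, while in Ifit1 and Isg15 the libraries of all 4 groups overlap.

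Within a group most of these genes varied more from library to library than most genes did. The residual SD on the log2 scale had a median of 0.23 over the 39 members, against 0.08 over all tested genes, and reached 0.56 in Ifit1, 0.57 in Ifit3 and 0.60 in Zbp1. The spread was shared: within each group the members moved up or down by library, as the map of deviations from the group means shows. For a principal component analysis, the deviations of each gene were divided by its residual SD. The first component of these standardised deviations held 66.7% of their variance over the members, against 22.6% over all tested genes. These shares come from sets of 39 and 11378 genes, and a small set can hold a larger share for its size alone.

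**Figure D3:**
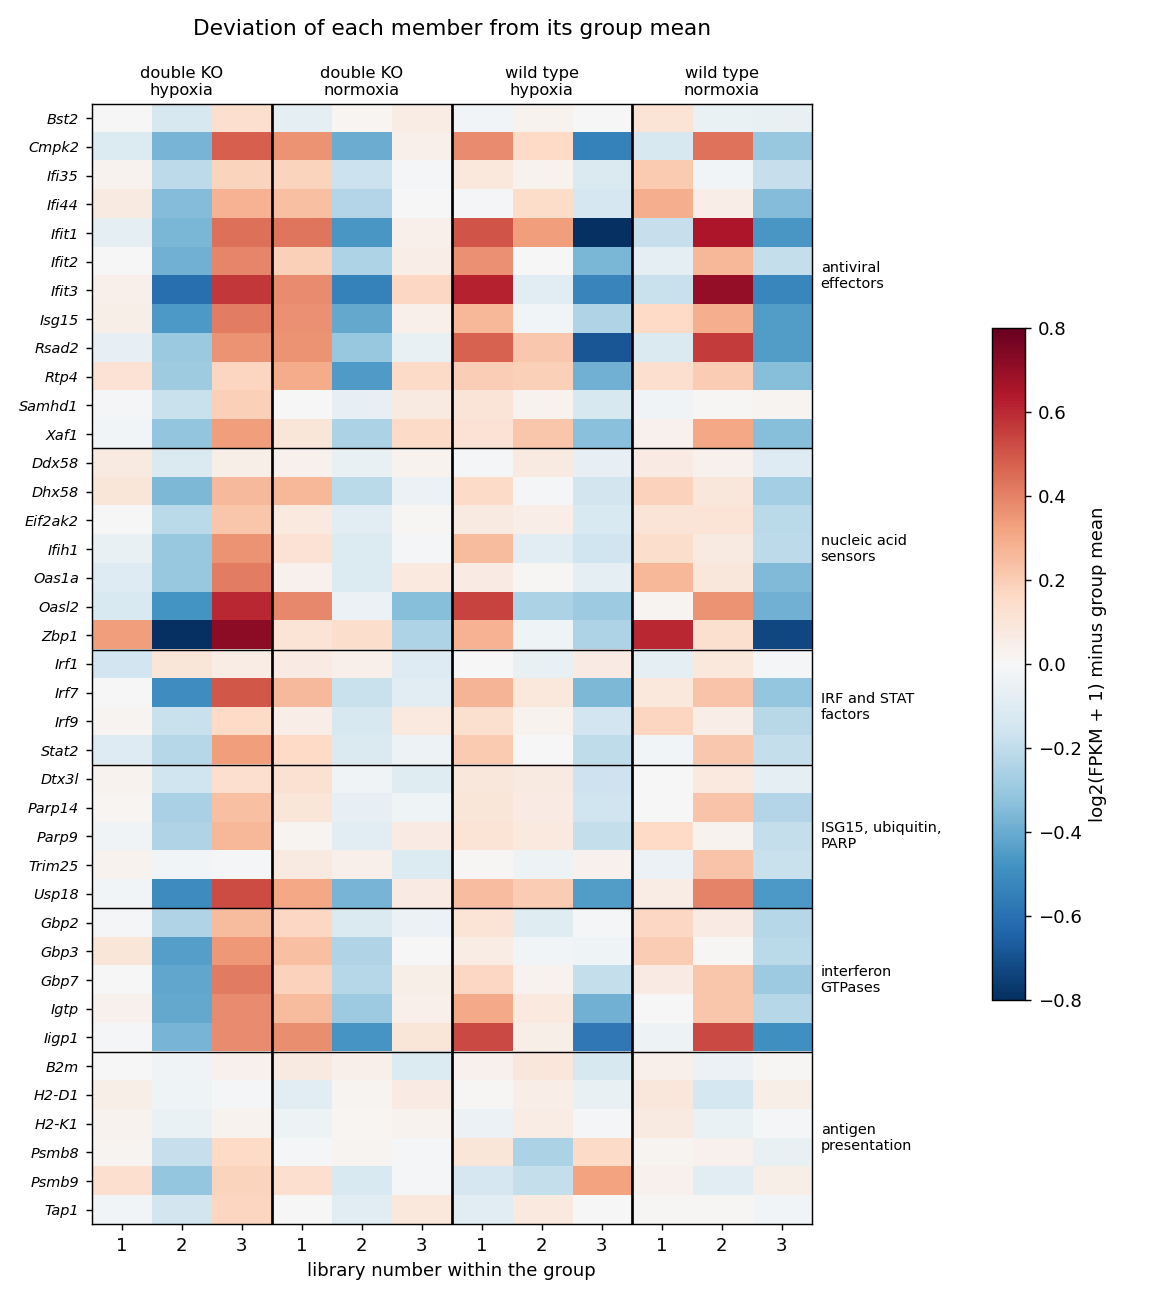
Deviation of log2(FPKM + 1) from the group mean for the 39 tested genes (rows, by role) in the 12 libraries (columns, by group); red is above and blue below the mean of the group. Library 2 of both double knockout groups and library 3 of both wild type groups are blue across most rows, with the palest colours in antigen presentation.

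In double knockout hypoxia the members' median deviation was -0.00 in library 1, -0.30 in library 2 and 0.27 in library 3. In double knockout normoxia it was 0.14, -0.12 and 0.03 in libraries 1 to 3. In wild type hypoxia it was 0.11, 0.03 and -0.16, and in wild type normoxia 0.06, 0.09 and -0.22. The low library was thus library 2 in both double knockout groups and library 3 in both wild type groups. The medians over all tested genes stayed between -0.02 and 0.01 in the 12 libraries.

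Ifit1, an effector that binds viral RNA lacking cap methylation, is an example of the shared pattern. It was at 8.48, 6.75 and 12.5 FPKM in double knockout hypoxia and at 13.6, 6.89 and 10.2 FPKM in double knockout normoxia, against 14.1, 12.5 and 4.98 FPKM in wild type hypoxia and 8.12, 15.2 and 6.50 FPKM in wild type normoxia. Its group means lay between 9.25 and 10.5 FPKM. Isg15, a ubiquitin-like modifier, was at 26.2, 18.2 and 34.0 FPKM in double knockout hypoxia and at 25.8, 14.6 and 20.3 FPKM in double knockout normoxia, against 25.6, 20.8 and 17.8 FPKM in wild type hypoxia and 23.1, 25.4 and 14.8 FPKM in wild type normoxia. The lowest library of each group was the same for Isg15 as for Ifit1.

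The depth behind these values can be given for the 15 members with 1 transcript, from FPKM, length and estimated depth. The within-group coefficient of variation was 3.44 to 9.48 times that of counting alone (median 5.41), a comparison that says nothing of the source of the spread between libraries. Ifit1 had an estimated 305 to 873 fragments per library and a coefficient of variation of 40.1%, against 4.23% from counting. For Bst2, with 13749 to 17979 fragments, the values were 6.23% and 0.795%.

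The gene-by-gene counts follow the same line. Library 2 of double knockout hypoxia was the lowest of its group for 38 of the 39 members, against 32.8% of all tested genes, and Irf1 was the exception. Library 2 of double knockout normoxia was lowest for 29 (21.7% of all genes), library 3 of wild type hypoxia for 31 (38.2%) and library 3 of wild type normoxia for 33 (28.2%). For 25 of the 39 (64.1%) the lowest library was that library in all 4 groups, against 108 of 11339 other genes (0.952%). Since the low library was taken from the members' own medians, the members' count is in part built in. The lists below were not used to choose that library, but they too were chosen with earlier results of these data known.

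By role, that held for 10 of 12 antiviral effectors, 4 of 5 GTPases, 3 of 4 transcription factors (Irf7, Irf9 and Stat2), 5 of 7 sensors, 3 of 5 ISG15, ubiquitin and PARP genes and 0 of 6 antigen presentation genes. Irf1 was lowest in the low library in none of the groups and H2-K1 in 1. Among 45 tested interferon-stimulated genes outside the members, the low library was the lowest in all 4 groups for 14 (31.1%). The same was true of 1 of 21 other class I presentation genes, 1 of 18 genes of nucleic acid sensing, 1 of 13 genes of interferon receptors and JAK-STAT signalling and 0 of 11 endothelial markers.

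The full order of the 3 libraries was shared by 15 of 39 members in all 4 groups and by 12 of 11339 other genes (0.106%). This order too was taken from the members' own medians, so the members' count is in part built in. These 12 were Ifit3b, Tgtp1, Tgtp2, Irgm2, Ube2l6, Irgm1, Helz2, Slfn3, Trim30d, 9930111J21Rik2, Agpat2 and Ddx24, named after their values were seen. Of them Ifit3b is a close copy of Ifit3, Tgtp1, Tgtp2, Irgm1 and Irgm2 are interferon-inducible GTPases like Igtp and Iigp1, and Ube2l6 is the enzyme that conjugates ISG15. Reads could be split between such copies, so they do not add separate evidence from their paralogs among the members.

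The step from the low to the high library of a group had a median over the members of 0.57 in double knockout hypoxia (library 3 over 2), 0.28 in double knockout normoxia (1 over 2), 0.28 in wild type hypoxia (1 over 3) and 0.40 in wild type normoxia (2 over 3) on the log2 scale. These libraries were picked by the members' own medians, so the steps are descriptions. Ifit1 had a standard error of 0.38 in the comparisons of 2 groups.

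Other properties of the libraries were set beside this order, and their part in it was not tested. The low library was the shallowest of its group in both double knockout groups, at an estimated 21000000 and 23850000 fragments, the deepest in wild type hypoxia at 25750000 and the middle one in wild type normoxia at 24450000. Leukocyte marker sums in libraries 1 to 3 were 87.7, 97.4 and 95.6 FPKM in double knockout hypoxia and 94.8, 92.1 and 104.6 FPKM in double knockout normoxia. They were 55.8, 55.7 and 53.9 FPKM in wild type hypoxia and 50.4, 42.0 and 52.2 FPKM in wild type normoxia, so the low library had the highest sum of its group in double knockout hypoxia and wild type normoxia and the lowest in double knockout normoxia and wild type hypoxia. Fibroblast and mural marker sums were 36.4, 31.7 and 37.5 FPKM in double knockout hypoxia, 31.9, 32.4 and 32.9 FPKM in double knockout normoxia, 48.5, 42.7 and 36.9 FPKM in wild type hypoxia and 30.8, 39.3 and 30.1 FPKM in wild type normoxia. The low library held the lowest of these sums in 3 of the 4 groups, all but double knockout normoxia. The 3 fibroblast rows with a mean under 0.1 FPKM were nearly unread throughout.

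The promoter motif was also set beside the shared order. Of the members lowest in the low library in all 4 groups, 19 have a window and 12 of them (63.2%) hold the ISRE-type motif, among them the Ifit1, Isg15 and Oas1a sequences above. Of the other tested members, 13 have a window and 3 (23.1%) hold it. These 13 include all 6 antigen presentation genes, of which 1 holds the motif. Members were sorted into these sets by their library order in the same data, and a link between motif and order was not tested. Among interferon-stimulated genes outside the members the motif was in 21 of 48 (43.8%). In the other class I presentation genes it was in 22.2%, in genes of nucleic acid sensing in 11.8%, in receptor and JAK-STAT genes in 8.33%, and in none of the 9 endothelial markers with a window.

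**Figure D4:**
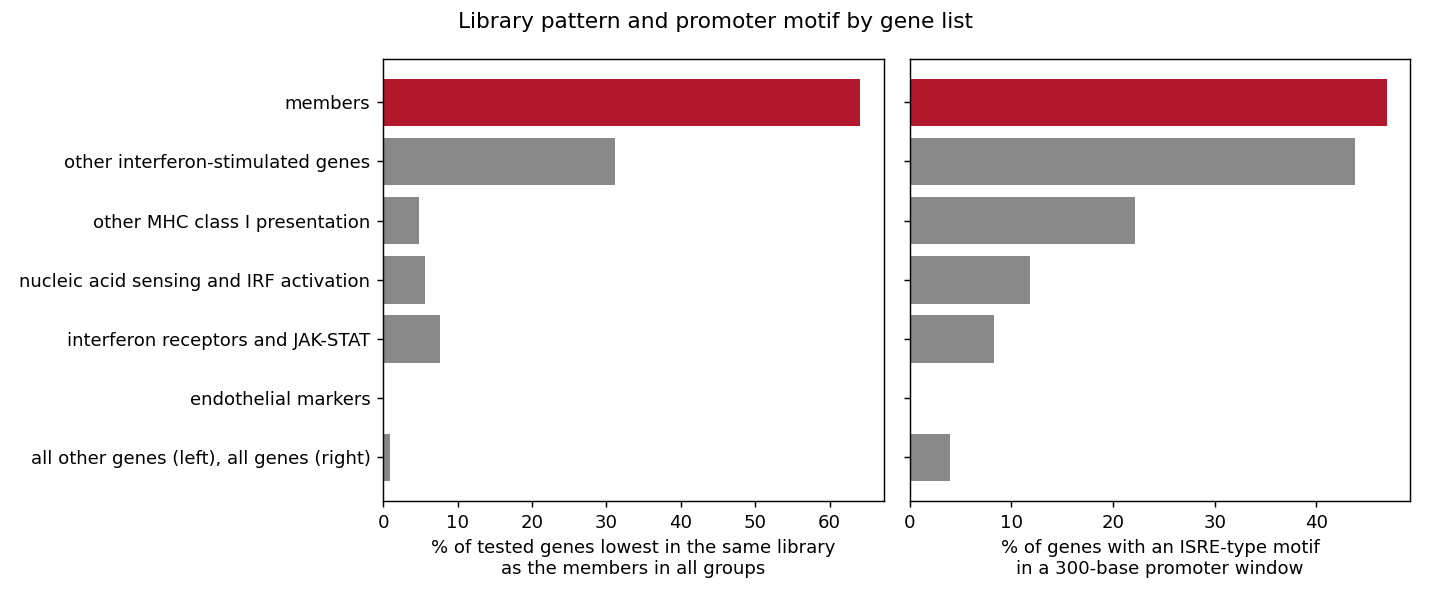
Left, percent of tested genes in each list that were lowest in the members' low library in all 4 groups (64.1% of members, 31.1% of other interferon-stimulated genes, 0.952% of all other genes). Right, percent of genes in each list with an ISRE-type motif in the 300-base window (46.9% of members, 43.8% of other interferon-stimulated genes, 3.99% of all genes).

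Leaving out the library with the lowest values changed what hypoxia called. Without library 2 of double knockout hypoxia, 9 members passed in double knockout cells instead of 4, adding Ddx58, Dhx58, Gbp3, Irf7 and Zbp1, all higher. Irf7 then had a log2 fold change of 0.64 (limma adjusted p = 0.0428) and Gbp3, a guanylate-binding GTPase, one of 0.62 (limma adjusted p = 0.00644). With libraries weighted by their quality in limma, 7 members passed. The library left out was chosen by the members' own level, so the larger counts are values under another setting and not results.

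Upstream of the members, several signalling genes changed in hypoxia although the ligands were nearly unread. Of 13 tested genes of interferon receptors and JAK-STAT signalling, 3 rose and 4 fell in double knockout hypoxia (53.8%, against 39.3% of all genes), and 1 rose and 4 fell in wild type hypoxia (38.5%, against 20.8%). Ptpn2, a phosphatase that dampens JAK and STAT signals, was at 28.5 ± 1.25 FPKM in double knockout hypoxia and 19.8 ± 0.700 in double knockout normoxia, and at 24.98 ± 0.551 FPKM in wild type hypoxia and 20.0 ± 0.533 in wild type normoxia (SD, n = 3 each). Its log2 fold change was 0.51 in double knockout and 0.31 in wild type cells (limma adjusted p = 6.15e-06 and 0.00062). Tyk2, a kinase of the type I receptor, fell in both, with -0.37 and -0.29 (limma adjusted p = 0.000651 and 0.00804). The receptor chain Ifngr2 fell by 0.31 in double knockout cells on the log2 scale (limma adjusted p = 0.000154). Ifnar1, a chain of the type I receptor, fell by 0.16 in wild type cells (limma adjusted p = 0.0238), a call that ended without wild type hypoxia library 1 or 2 or wild type normoxia library 1 or 3 (highest limma adjusted p = 0.0999).

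Of 18 tested genes of nucleic acid sensing and IRF activation, 1 rose and 4 fell in double knockout hypoxia (27.8%, against 39.3% of all genes), and 1 rose and 3 fell in wild type hypoxia (22.2%, against 20.8%). Irf3, the factor that sensors activate first, was at 15.4, 15.3 and 16.5 FPKM in double knockout hypoxia, against 23.6, 24.3 and 23.2 FPKM in double knockout normoxia, with a log2 fold change of -0.56 (SE 0.05, limma adjusted p = 7.42e-06). Mavs, the adaptor of RIG-I and MDA5, averaged 3.88 ± 0.268 FPKM in double knockout hypoxia and 6.16 ± 0.328 in double knockout normoxia (SD, n = 3 each), a log2 fold change of -0.56 (limma adjusted p = 4.59e-05). Tbk1, the kinase that phosphorylates IRF3, was higher in hypoxia in both genotypes, by 0.29 in double knockout and 0.14 in wild type cells (limma adjusted p = 0.000103 and 0.022). The call of Tbk1 in wild type ended without wild type hypoxia library 1 or 3 or wild type normoxia library 2 (highest limma adjusted p = 0.0731). Tmem173, which encodes STING, fell by 0.23 in wild type hypoxia (limma adjusted p = 0.0109). Tank, a partner of TBK1, fell by 0.27 there (limma adjusted p = 0.0225), which ended without wild type hypoxia library 1 or 2 or wild type normoxia library 2 or 3 (highest limma adjusted p = 0.083).

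Between genotypes, Irf3 and Irf8 were lower in double knockout hypoxia than in wild type hypoxia, by log2 fold changes of -0.37 and -0.26 (limma adjusted p = 0.000405 and 0.00673), and Mavs likewise at -0.29 (limma adjusted p = 0.0099). In this list 3 genes were higher and 3 lower in double knockout hypoxia than in wild type hypoxia (33.3%, against 16.1% of all genes), and none passed in normoxia (8.16% of all genes), where 4 had an unadjusted p under 0.05 (limma). Over both oxygen levels, Tmem173 and Myd88, the adaptor of Toll-like receptors, were higher in double knockout cells, by 0.18 and 0.25 (limma adjusted p = 0.00569 and 0.00678). Ifngr1, the ligand-binding chain of the interferon gamma receptor, was the only receptor gene to pass over both levels, at 0.16 (limma adjusted p = 0.0124).

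Among the 45 tested interferon-stimulated genes outside the members, 8 rose and 3 fell in double knockout hypoxia (24.4%, against 39.3% of all genes) and 1 rose and 4 fell in wild type hypoxia (11.1%, against 20.8%). The chemokine Ccl5 was at 2.71, 1.47 and 2.12 FPKM in double knockout hypoxia, against 0.588, 0.490 and 0.319 FPKM in double knockout normoxia, with a log2 fold change of 1.07 (SE 0.16, limma adjusted p = 0.000322). In wild type cells Ccl5 was at 1.66, 0.860 and 1.19 FPKM in hypoxia, against 1.38, 1.60 and 1.11 FPKM in normoxia. In normoxia Ccl5 was thus lower in double knockout than in wild type cells, at -0.69 (limma adjusted p = 0.0215), a call that ended without library 2 or 3 of double knockout normoxia or library 1 or 2 of wild type normoxia (highest limma adjusted p = 0.0897). The difference between its 2 hypoxia responses, 1.16 (SE 0.23), did not pass (limma adjusted p = 0.0707). Trim34a, a ubiquitin ligase, fell in both genotypes, by 0.56 in each on the log2 scale (limma adjusted p = 0.00166 and 0.00461), and so did Parp11, by 0.45 in each (limma adjusted p = 0.00183 and 0.0048). Tdrd7, a tudor domain protein, rose by 0.18 in wild type hypoxia (limma adjusted p = 0.0165), which ended without library 1 of wild type hypoxia (limma adjusted p = 0.0661). Between genotypes, 9 of the 45 were higher and none lower in double knockout cells over both levels (20%, against 19% of all genes). The 3 with the smallest p were the scramblase Plscr2 at 0.35, Gbp9 at 0.20 and the GTPase Ifi47 at 0.39 (limma adjusted p = 0.000369, 0.00127 and 0.0176).

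Of 21 tested class I presentation genes outside the members, 2 rose and 0 fell in double knockout hypoxia (9.52%, against 39.3% of all genes), H2-Q4 at 0.19 and the chaperone Canx at 0.08 (limma adjusted p = 0.0405 for each). Both calls ended without double knockout hypoxia library 1 or 3 or double knockout normoxia library 1 or 2, and in other alternatives (highest limma adjusted p = 0.162 for H2-Q4 and 0.705 for Canx). In wild type hypoxia 1 rose and 1 fell (9.52%, against 20.8%), the nonclassical heavy chain H2-T23 at 0.35 and Tapbpl, a relative of the peptide editor tapasin, at -0.35 (limma adjusted p = 0.0353 and 0.0175). Both calls ended without library 1 of wild type hypoxia, and that of H2-T23 also without library 2 of wild type hypoxia, without library 2 or 3 of wild type normoxia and in 3 other alternatives (highest limma adjusted p = 0.0628 for Tapbpl and 0.12 for H2-T23). Over both levels 7 of the 21 were higher and 1 lower in double knockout cells (38.1%, against 19% of all genes). H2-Q7, a nonclassical class I heavy chain, averaged 5.80 ± 0.401 FPKM in double knockout hypoxia and 3.26 ± 0.447 in wild type hypoxia, and 5.84 ± 0.267 in double knockout normoxia and 3.13 ± 0.303 in wild type normoxia (SD, n = 3 each), with a log2 fold change of 0.70 over both levels (limma adjusted p = 8.6e-06). H2-Q6 was higher by 0.85 (limma adjusted p = 3.52e-05), and the endoplasmic reticulum chaperone Hspa5 by 0.14 (limma adjusted p = 0.00243). H2-Q6 and H2-Q7 are near-identical in sequence, so their values are not independent.

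Class II presentation was nearly unread: Ciita, its master regulator, averaged 0.03 FPKM over all libraries, Cd74, the invariant chain, 0.17 FPKM, and H2-Aa 0.07 FPKM. Only 2 of 11 listed genes were tested, and both were higher in double knockout cells over both levels. Ctss, a cathepsin of antigen-presenting cells, averaged 3.34 ± 0.352 FPKM in double knockout hypoxia and 1.59 ± 0.337 in wild type hypoxia, and 3.44 ± 0.269 in double knockout normoxia and 1.35 ± 0.182 in wild type normoxia (SD, n = 3 each), with a log2 fold change of 0.84 (limma adjusted p = 1.08e-05). H2-DMa was higher by 0.17 (limma adjusted p = 0.0436), which ended in 11 of 19 alternatives, among them those without any 1 wild type normoxia library (highest limma adjusted p = 0.0979). The leukocyte marker sums were higher in the same libraries, and their part in these 2 genes was not tested.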

How the data were processed

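Total RNA came from an RNeasy Plus extraction and went into NEBNext Ultra libraries, per the labels' protocols. The submitters' processing notes name TopHat2 as a tool. The authors deposited 1 table of FPKM, with a row for each of 52655 transcripts. Its genome build, annotation and quantifier are not given here in any source. FPKM was summed by gene identifier. The 11378 genes averaging 1 FPKM or more were tested as log2(FPKM + 1) in limma 3.58.1 under R 4.3.3, with 1 coefficient per group over the 12 libraries (8 residual degrees of freedom, variance trend on the mean). Benjamini-Hochberg adjustment ran over all of these genes, with a threshold of 0.05. This scale understates changes of low genes. Of the members, 39 passed the filter, 2 did not, and Mx2 was not analysed here. The fit was tested on simulated data.

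The members, the other lists, the rules and the tests were chosen with earlier results of these data known. Values in every library are given for the 4 transcription factors and for up to 6 members per comparison that passed, by smallest p. From every other list the text names up to 3 genes per comparison that passed, by smallest p, or up to 2 of the highest level where none passed. Promoters were printed for the 4 members with the smallest p over both oxygen levels, and further ones were added after values were seen.

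Depth was estimated from steps in the low FPKM of 9833 single-transcript genes, with 275 bases taken off each transcript, where 89.5% to 92.2% of low values lay within 0.1 of a whole fragment. Positions came from GENCODE M21 (GRCm38), by gene identifier, and promoter windows from RefSeq, by symbol. Settings varied 1 at a time were the pseudocount (0.1), the filter (none, or 5 FPKM), the scaling (quantile normalization, or equal medians of the libraries), the model (a replicate block, no trend, array weights, or only the libraries compared) and the omission of each library.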

Additional observations from a re-analysis of the deposited data

Results flagged for a closer look

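The hypoxia response of Irf3 differed between the genotypes by a test of the difference itself. Irf3 was at 15.4, 15.3 and 16.5 FPKM in double knockout hypoxia, against 23.6, 24.3 and 23.2 FPKM in double knockout normoxia. Wild type cells had 20.02, 20.65 and 21.22 FPKM in hypoxia, against 21.21, 23.95 and 22.31 FPKM in normoxia. The double knockout groups did not overlap, and in wild type cells the highest hypoxia library lay just above the lowest normoxia library. The response in double knockout cells minus that in wild type cells was -0.44 on the log2 scale (SE 0.07, limma adjusted p = 0.0347). This call ended in 14 of 20 alternatives, among them those without any 1 library other than wild type hypoxia library 1 (highest limma adjusted p = 0.125), while the value stayed between -0.49 and -0.40. No other gene of the lists described here, apart from the targeted Map3k10, passed in this comparison.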

How the results depend on the processing

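Of the 66 calls that the naming rule picks, some of them not printed above, under 1351 alternatives in all, 1221 kept their direction and their side of the threshold, 129 lost the call and 1 turned round: Canx in double knockout hypoxia was at -0.015 under quantile normalization, and the cause was not tested. The call was kept in every alternative for 45 of the 66. Members called in double knockout hypoxia numbered 7 with array weights and 3 to 9 with a library left out (9 without double knockout hypoxia library 2). In wild type hypoxia they numbered 2 when only the libraries compared were fitted and 1 to 2 with a library left out (2 without double knockout hypoxia library 2 or 3 or wild type normoxia library 3). Between genotypes in normoxia the count was 0 with no filter, 2 with equal library medians, array weights or only the libraries compared, and 0 to 1 with a library left out (0 without any 1 double knockout normoxia library or wild type normoxia library 2). Between genotypes in hypoxia it was 1 with no filter, 1 under quantile normalization and 0 to 4 with a library left out (0 without double knockout library 1 or wild type library 1 or 3, and 1 without double knockout library 3 or wild type library 2). Over both oxygen levels it was 4 to 6 with a library left out, and in the difference of responses 0 in every alternative run. The 25 members lowest in the same library of all 4 groups also numbered 25 with a pseudocount of 0.1 and with equal library medians.

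With the replicate number as a block, the counts were 3 in double knockout hypoxia (Ifih1 was lost), 1 in wild type hypoxia, 1 and 3 between genotypes in normoxia and hypoxia, 0 in the difference and 5 over both levels. The block gives a library number the same shift in all 4 groups. The members' low library was library 2 in double knockout and library 3 in wild type groups, so the block cannot take up that pattern in full. How much of it the block takes up was not tested. Deviations from the group means were correlated between same-numbered libraries of different groups, across all tested genes and not the members alone. Pearson's r of these deviations was -0.0841 to 0.167 over 18 pairs. By the same deviations, 5 of 12 libraries correlated best with a library of their own number in another group. The table gives FPKM without counts, so values of genes near 1 FPKM carry no exact counting error, and genes under 5 FPKM give no value under that filter.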
